A study of Mus musculus with 16 samples.

Results

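The interval between 6 h and 12 h of auxin in mouse embryonic stem cells (mESCs) depleted of RUVBL2 was examined across all genes. It was defined by the labels alone, as the 2 RNA-Seq libraries at 12 h of auxin against the 2 at 6 h, which are 4 of the 16 libraries of the experiment. The V6.5 mESCs carried RUVBL2 fused to mAID and GFP, together with OsTIR1 under a doxycycline-inducible (Tet-ON) promoter, and were derived from picked single clones. They grew with LIF on irradiated mouse embryonic fibroblast feeders and, by the study's methods, were kept off feeders for 2 passages before they were collected. The cells of all 4 libraries received 2 µg/ml doxycycline for 24 h and then 500 µM auxin, for 6 h in one group and for 12 h in the other, and their poly(A) RNA was read from both ends. Time with doxycycline and time with auxin lengthened together over this interval and cannot be told apart here. The study's methods call the 2 libraries of a condition technical duplicates and its results call them replicates, so the p-values below measure only the spread between libraries, which may be technical.

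RUVBL2 is an AAA+ ATPase that works with its partner RUVBL1 in the INO80, SRCAP and TIP60 chromatin remodelers and in the R2TP cochaperone, which helps to assemble RNA polymerases, snoRNPs and PIKK kinases. With auxin, OsTIR1 directs the mAID-tagged protein to the proteasome. Among the inducible programs that mESCs carry, hypoxia-inducible factors (HIFs) bind a short DNA element and raise genes of glycolysis and oxygen sensing, ATF4 raises amino acid supply genes in the integrated stress response (ISR), NRF2 raises antioxidant genes, and the aryl hydrocarbon receptor (AhR) raises genes of xenobiotic metabolism. The comparison asks which of these and of the other programs moved between 6 h and 12 h.

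The 4 libraries were close in size, but the times were apart on several measures. The 6 h libraries held 13406832 and 13893117 counts, with 21029 and 21456 genes above 0. The 12 h libraries held 12848657 and 12269076 counts, with 20509 and 20295 genes above 0. Ribosomal protein genes took 6.80% and 6.92% of the counts at 6 h and 7.68% and 7.45% at 12 h. Replicate libraries correlated at 0.9956 at 6 h and 0.9957 at 12 h on the log2 CPM scale (CPM, the TMM-normalized count scaled to a common library size, is the level used throughout). Embryonic stem cell markers summed to 6240 to 6297 CPM at 6 h and 6700 to 6740 CPM at 12 h. Fibroblast markers summed to 34.74 to 37.2 CPM at 6 h and 33.9 to 36.48 CPM at 12 h, so their sums overlapped between the times. The neural list stood at 670 to 676 CPM and then 404 to 409 CPM, a fall that its member Tubb3 carried. Because degradation acts on the protein, the Ruvbl2 mRNA does not report the depletion. Ruvbl2 (chromosome 7 from 45421760 to 45438096 of GRCm38) stood at 154 and 151 CPM in the 6 h libraries and at 179.9 and 189 CPM in the 12 h libraries, higher at 12 h in both libraries but under the fold threshold (log2 fold change 0.28 ± 0.05 (SE), edgeR adjusted p = 2.44e-05). Ruvbl1 stood at 65.9 and 70.8 CPM in the 6 h libraries and at 73.9 and 68.3 CPM in the 12 h libraries, where the libraries overlapped (log2 fold change 0.06 ± 0.06 (SE), edgeR adjusted p = 0.434).

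Of 15155 genes tested, 1200 were higher and 1338 lower at 12 h than at 6 h by more than 1.5-fold with an adjusted p under 0.05 (edgeR quasi-likelihood test), or 7.92% and 8.83% of the genes tested, 16.7% in all. These shares are the background for every count of members below. The 2 libraries of one time did not overlap those of the other in 36.5% of all tested genes with 12 h higher and in 35.6% with 12 h lower, so lack of overlap was common among all genes. Changes over 2-fold were seen in 390 genes that rose and 609 that fell, and over 4-fold in 45 and 101. Levels are relative to the other genes of each library. When library sizes were instead set by the reads assigned to the fruit fly genome dm6 that the study lists per library, all genes shifted together by a median of -0.54 on the log2 scale and the calls became 224 higher and 6034 lower, 3.58% of the calls being higher in place of 47.3%. The sources used here do not describe a fly spike-in for these RNA libraries. All changes below are therefore relative to the middle of all genes, whose median log2 fold change was -0.0012. Under that scaling 0 of the 1200 genes called higher and 0 of the 1338 called lower changed sign. The fold threshold fixed this outcome, because the smallest rise called was 0.5852 and the shift of about -0.54 was smaller in size. The smallest log2 fold change of the 1200 became 0.045, and only 224 of them were still called higher. Ruvbl2 and Ruvbl1, which were not called, turned negative (-0.26 and -0.48).

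**Figure D1:**
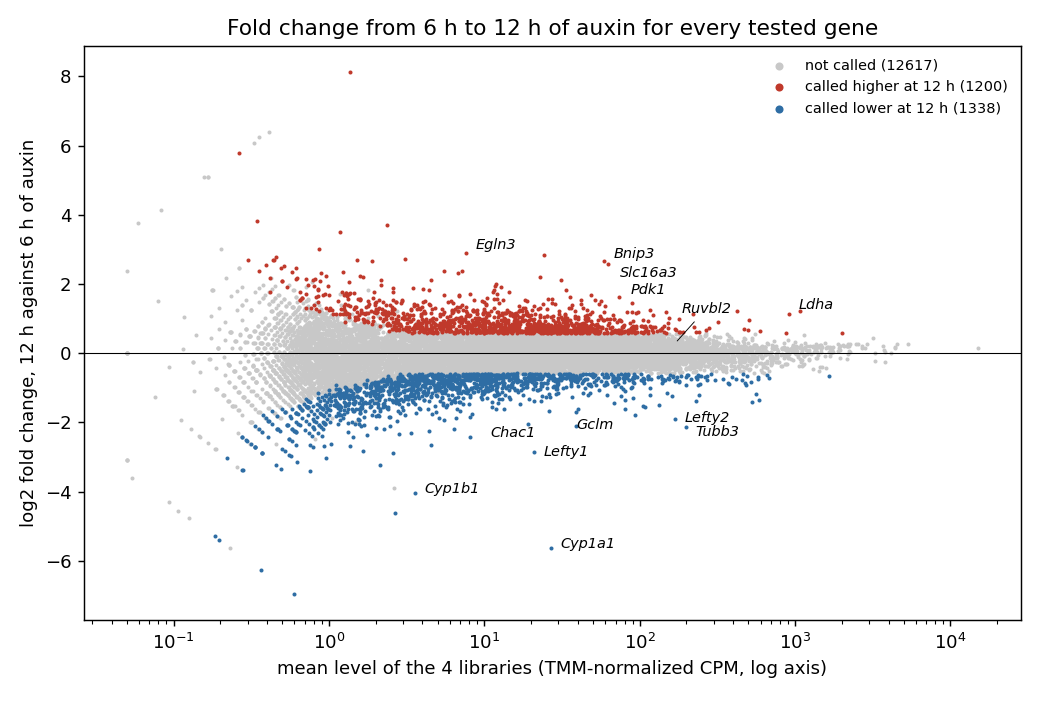
Log2 fold change from 6 h to 12 h of auxin against the mean level of the 4 libraries (TMM-normalized CPM, log axis, means under 0.05 drawn at 0.05), 1 point per tested gene. The 1200 genes called higher and the 1338 called lower are coloured, Cyp1a1 lies lowest among the genes marked by name, and Ruvbl2 lies close to 0.

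The HIF target list held the highest share of risen genes of all 53 lists counted. Of its 28 tested members 17 rose and 0 fell, 60.7% against 7.92% of all genes, and the median log2 fold change of the 28 was 0.76 (0.22 under the dm6 scaling). The 17 ranged from 0.60 to 2.90. The steepest risers served oxygen sensing (Egln3), mitophagy (Bnip3), lactate export (Slc16a3), the closing of pyruvate entry into mitochondria (Pdk1) and collagen hydroxylation (P4ha1). The list was chosen with the rise of HIF targets at 12 h already known, so its count describes the step and is no independent test of it.

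The promoters of 4 of these genes are shown because their members moved together and HIF dimers bind the core ACGTG. The sequences are those of RefSeq on GRCm38.p6, 250 bases before to 50 after the transcription start, written 5′ to 3′ in the direction of transcription. Capitals mark ACGTG or its reverse complement CACGT, and in Bnip3 the 2 overlap as CACGTG.
Egln3, chr12:54203825-54204124, minus strand: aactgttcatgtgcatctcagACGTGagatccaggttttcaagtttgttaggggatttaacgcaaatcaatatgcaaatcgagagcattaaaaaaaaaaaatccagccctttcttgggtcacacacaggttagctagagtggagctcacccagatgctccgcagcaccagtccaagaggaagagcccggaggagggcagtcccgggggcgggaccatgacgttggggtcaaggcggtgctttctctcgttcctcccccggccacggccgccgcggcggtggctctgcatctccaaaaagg
Bnip3, chr7:138909457-138909756, minus strand: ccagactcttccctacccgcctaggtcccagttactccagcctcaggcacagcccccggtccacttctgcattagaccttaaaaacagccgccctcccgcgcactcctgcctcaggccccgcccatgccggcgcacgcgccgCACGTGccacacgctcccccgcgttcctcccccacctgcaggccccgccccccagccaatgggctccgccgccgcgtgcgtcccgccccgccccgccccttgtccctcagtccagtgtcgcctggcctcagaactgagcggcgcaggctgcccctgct
Slc16a3, chr11:120948817-120949116, plus strand: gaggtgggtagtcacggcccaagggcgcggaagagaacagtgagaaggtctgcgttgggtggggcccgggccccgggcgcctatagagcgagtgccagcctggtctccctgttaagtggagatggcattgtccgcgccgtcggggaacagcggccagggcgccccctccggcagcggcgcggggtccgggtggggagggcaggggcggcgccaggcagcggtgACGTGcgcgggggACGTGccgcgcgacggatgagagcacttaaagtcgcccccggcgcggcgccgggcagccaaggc
Slc2a1, chr4:119108495-119108794, plus strand: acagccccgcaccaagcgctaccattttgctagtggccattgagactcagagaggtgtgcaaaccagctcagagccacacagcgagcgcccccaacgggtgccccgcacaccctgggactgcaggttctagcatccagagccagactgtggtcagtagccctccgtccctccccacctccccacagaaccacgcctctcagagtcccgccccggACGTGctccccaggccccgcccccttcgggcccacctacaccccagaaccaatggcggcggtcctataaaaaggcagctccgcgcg
The match began 229 bases before the start in Egln3, 108 bases before it in Bnip3, 27 and 14 bases before it in Slc16a3 and 36 bases before it in Slc2a1. ACGTG on either strand was in 14 of 18 promoters of the 14 risen HIF list genes that the RefSeq table held (77.8%). It was in 25.1% of the 13967 promoters of all tested genes in the table and in 24.5% of those of all genes that rose. A gene with more than 1 start counts once per start, and Pdk1 had 0 matches to ACGTG. The promoter of its first start does hold GCGTG, which differs from ACGTG in the first base. GCGTG on either strand was in 9 of the 18 promoters of the risen HIF list genes and in 49.8% of the 13967, so it did not set them apart. A match describes the letters of the window and not binding, and a window without ACGTG may still hold a site that HIF binds.

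Egln3 (chromosome 12 from 54178981 to 54203860), the prolyl hydroxylase that marks HIF-alpha for destruction and is itself a HIF target, stood at 1.2 and 2.36 CPM in the 6 h libraries and at 11.8 and 15.1 CPM in the 12 h libraries. Both 12 h libraries lay above both 6 h libraries, and above all 14 other libraries of the experiment. The rise was 7.48-fold (log2 fold change 2.90 ± 0.23 (SE), edgeR adjusted p = 3.95e-10). Bnip3 (chromosome 7 from 138890836 to 138909519), a mitophagy receptor on the outer mitochondrial membrane, stood at 16.3 and 15.9 CPM in the 6 h libraries and at 106 and 97 CPM in the 12 h libraries. The 6 h libraries were the lowest of the 16 and the 12 h libraries the highest (log2 fold change 2.66 ± 0.07 (SE), edgeR adjusted p = 1.59e-18). Slc16a3 (chromosome 11 from 120948480 to 120960868), which encodes the lactate exporter MCT4, stood at 17.8 and 18.1 CPM in the 6 h libraries and at 105 and 108 CPM in the 12 h libraries, again with the 12 h libraries above all others (log2 fold change 2.57 ± 0.09 (SE), edgeR adjusted p = 7.27e-17).

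Pdk1, a kinase that shuts off pyruvate dehydrogenase, stood at 38.8 and 33.5 CPM in the 6 h libraries and at 106 and 115 CPM in the 12 h libraries. Its 6 h libraries were the lowest of the experiment, while Mock libraries stood above those at 12 h, so the rise of 1.61 ± 0.07 (log2, SE, edgeR adjusted p = 4.05e-15) set out from a low level at 6 h. P4ha1, the catalytic subunit of a collagen prolyl 4-hydroxylase, stood at 24.9 and 27.9 CPM in the 6 h libraries and at 79.1 and 75.2 CPM in the 12 h libraries. Its 12 h libraries were above all 14 others (log2 fold change 1.55 ± 0.07 (SE), edgeR adjusted p = 1.45e-14). Of the 17 risen members, 9 had both 12 h libraries above all 14 others and 5 had both 6 h libraries below all 14 others, against 23.4% and 14.8% of all genes called higher and 5.31% and 4.84% of all genes tested. Not all targets took part. The 11 members that were not called lay between -0.44 and 0.75, among them Vegfa, the vascular growth factor, at a log2 fold change of 0.58 just under the threshold, and Kdm3a, a histone demethylase, at -0.44 (both named after their values were seen).

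Glycolytic enzymes were also among the risen genes. Of 23 tested entries of the glycolysis and lactate export list 9 rose and 0 fell, 39.1% against 7.92%. The median log2 fold change was 0.45 and turned to -0.09 under the dm6 scaling. Under total count scaling 7 rose, under upper quartile scaling 6 rose, and under the dm6 scaling 4 rose and 2 fell. The risen members spanned the pathway from glucose entry to lactate export. Slc2a1, the glucose transporter GLUT1, stood at 120.3 and 118 CPM in the 6 h libraries and at 238 and 239 CPM in the 12 h libraries (log2 fold change 1.00 ± 0.04 (SE), edgeR adjusted p = 2.91e-15). The libraries of each time were close and the times well apart. Pfkl, a phosphofructokinase of the committed step, stood at 139.8 and 137 CPM in the 6 h libraries and at 299.8 and 311 CPM in the 12 h libraries (log2 fold change 1.14 ± 0.05 (SE), edgeR adjusted p = 6.85e-15). Tpi1, which interconverts the triose phosphates, stood at 259 and 248 CPM in the 6 h libraries and at 595 and 589 CPM in the 12 h libraries (log2 fold change 1.22 ± 0.04 (SE), edgeR adjusted p = 2.27e-16).

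Ldha, which turns pyruvate into lactate, stood at 588 and 565 CPM in the 6 h libraries and at 1259 and 1259 CPM in the 12 h libraries, the most abundant of the 5 members with the largest rise (log2 fold change 1.13 ± 0.04 (SE), edgeR adjusted p = 7.27e-17). All 9 risen glycolysis genes had both 12 h libraries above the 14 other libraries. Pgk1, which is also on the list of reference genes and was the only one of its 30 tested members to be called, rose from 694 ± 14.4 to 1044 ± 17.2 CPM (SD, n = 2). Its log2 fold change of 0.59 sits at the fold threshold, and the call was lost without replicate 2 of 6 h or replicate 2 of 12 h, where it was 0.57. Slc16a3, Slc2a1 and Hk2 are on both lists, so the counts are not separate.

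**Figure D2:**
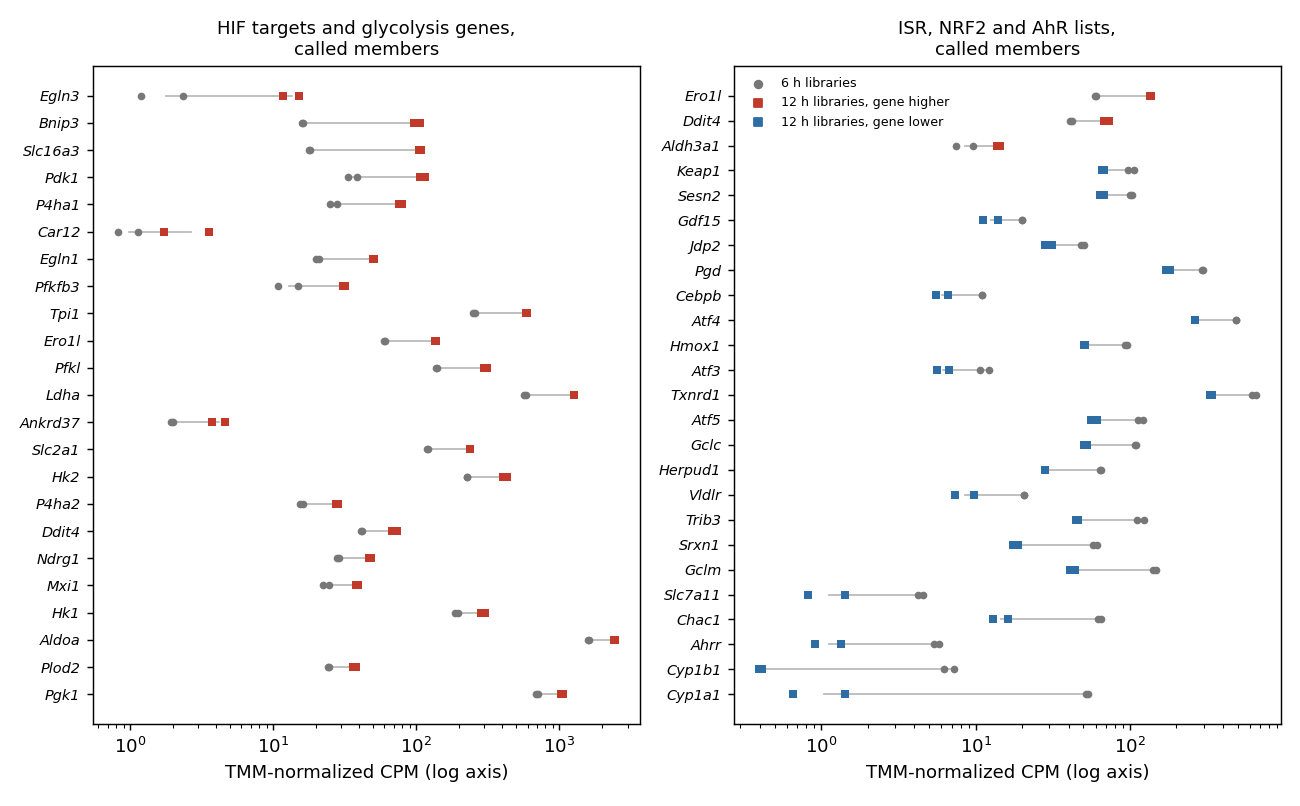
Level of every called member of the HIF target and glycolysis lists (left) and of the ISR, NRF2 and AhR lists (right) in each of the 4 libraries (TMM-normalized CPM, log axis), with circles for 6 h, squares for 12 h and a line joining the means. Bnip3 moves from about 16.1 to 102 CPM and Cyp1a1 from 52.8 to 1.04 CPM, and Aldh3a1, Ddit4 and Ero1l are the members on the right that rose.

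Beyond the lists, the 15 largest rises among genes of at least 5 CPM at one of the times also held Aire, the regulator of tissue antigen expression known from the thymus, at 5.68 and 6.15 CPM in the 6 h libraries and at 43.1 and 42.4 CPM in the 12 h libraries (log2 fold change 2.85 ± 0.12 (SE), edgeR adjusted p = 3.7e-15). Its 6 h libraries were below and its 12 h libraries above all the others. Anxa2, a calcium-dependent membrane-binding protein, stood at 12.8 and 10.3 CPM in the 6 h libraries and at 48.7 and 52.1 CPM in the 12 h libraries (log2 fold change 2.13 ± 0.11 (SE), edgeR adjusted p = 3.35e-13). Loxl2, a lysyl oxidase of the matrix, stood at 2.02 and 2.5 CPM in the 6 h libraries and at 11.7 and 10.9 CPM in the 12 h libraries (log2 fold change 2.32 ± 0.28 (SE), edgeR adjusted p = 2.69e-07). Both were higher at 12 h than in any other condition. Ndufa4l2, a mitochondrial protein known as a HIF target in other cells, rose from 2.34 ± 0.28 to 12.1 ± 0.507 CPM (SD, n = 2) and Klhdc7a from 8.16 ± 1.19 to 37.5 ± 2.22 CPM. The others in this set were Hist3h2a, Cacna1h, Irf8, Bcl2l14, Zfpm1, Tmem35b and Lhfpl2, with log2 fold changes from 1.90 (Lhfpl2) to 2.72 (Hist3h2a).

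The largest fall of the step belonged to the AhR targets. Cyp1a1 and Cyp1b1, cytochrome P450 enzymes that AhR induces, and Ahrr, the AhR repressor, all fell, 3 of 8 tested members of the list against 8.83% of all genes. The receptor itself, Ahr, stood at 3.57 CPM and then 2.48 CPM and its partner Arnt at 101 and 141 CPM, neither of them called and both named after their values were seen. The promoter of Cyp1a1 is shown with the core of the AhR element, GCGTG, in capitals.
Cyp1a1, chr9:57697363-57697662, plus strand: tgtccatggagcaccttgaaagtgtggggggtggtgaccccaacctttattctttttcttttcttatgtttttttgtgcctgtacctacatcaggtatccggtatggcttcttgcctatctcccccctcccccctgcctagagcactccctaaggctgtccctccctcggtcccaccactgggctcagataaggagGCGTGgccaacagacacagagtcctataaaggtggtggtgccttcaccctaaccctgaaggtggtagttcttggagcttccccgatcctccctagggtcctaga
GCGTG or its reverse complement was in 3 of 3 promoters of these genes and in 49.8% of all 13967, so the core alone is common.

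Cyp1a1 (chromosome 9 from 57687928 to 57703824) stood at 53.3 and 52.3 CPM in the 6 h libraries and at 1.42 and 0.662 CPM in the 12 h libraries, a 49.8-fold fall (log2 fold change -5.64 ± 0.21 (SE), edgeR adjusted p = 2.85e-16). No other condition exceeded 3.51 CPM in its mean, so the 6 h level stood alone. Cyp1b1 stood at 6.28 and 7.29 CPM in the 6 h libraries and at 0.395 and 0.414 CPM in the 12 h libraries (log2 fold change -4.04 ± 0.49 (SE), edgeR adjusted p = 4.45e-07). Ahrr stood at 5.38 and 5.79 CPM in the 6 h libraries and at 1.34 and 0.91 CPM in the 12 h libraries (log2 fold change -2.29 ± 0.34 (SE), edgeR adjusted p = 5.47e-06). All 3 genes had both 6 h libraries above the 14 others. Aldh3a1, an aldehyde dehydrogenase on the same list, moved the other way, from 8.53 ± 1.45 to 14.1 ± 0.457 CPM (SD, n = 2). Its call at a log2 fold change of 0.73 was lost without replicate 2 of 6 h, where it was 0.57.

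Genes of the ISR were among the fallen. On their list 12 of 24 tested members fell, against 8.83% of all genes, and 2 rose, with a median log2 fold change of -0.58. The 12 included the transcription factors Atf4, Atf5, Atf3, Cebpb and Jdp2 and the effectors Chac1, Trib3, Slc7a11, Vldlr, Herpud1, Gdf15 and Sesn2. The 2 that rose, Ddit4, an mTORC1 inhibitor, and Ero1l, an oxidase of the endoplasmic reticulum, also stand on the HIF list. Gdf15 was not called without replicate 2 of 12 h, where its log2 fold change was -0.52. The promoters of Chac1 and Trib3 are shown because ATF4 with a CEBP partner binds TGATGNAAN, marked in capitals in either orientation.
Chac1, chr2:119350992-119351291, plus strand: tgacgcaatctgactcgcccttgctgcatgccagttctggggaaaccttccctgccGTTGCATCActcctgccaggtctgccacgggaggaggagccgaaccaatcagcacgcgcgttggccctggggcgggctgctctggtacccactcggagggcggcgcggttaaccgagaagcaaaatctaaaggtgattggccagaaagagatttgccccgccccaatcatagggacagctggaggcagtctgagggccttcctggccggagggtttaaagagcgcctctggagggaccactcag
Trib3, chr2:152344011-152344310, minus strand: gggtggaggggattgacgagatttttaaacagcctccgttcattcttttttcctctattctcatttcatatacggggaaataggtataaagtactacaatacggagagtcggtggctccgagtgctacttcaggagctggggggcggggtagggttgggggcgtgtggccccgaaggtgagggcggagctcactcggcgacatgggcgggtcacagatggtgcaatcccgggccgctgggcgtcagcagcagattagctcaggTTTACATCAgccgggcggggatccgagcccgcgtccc
The element was in 7 of 17 promoters of the 12 fallen genes (41.2%), in 3.66% of the promoters of all fallen genes and in 2.21% of all.

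Chac1 (chromosome 2 from 119351229 to 119354381), a glutathione-degrading enzyme, stood at 64.7 and 61.7 CPM in the 6 h libraries and at 13 and 16.3 CPM in the 12 h libraries (log2 fold change -2.11 ± 0.09 (SE), edgeR adjusted p = 6.61e-15). Trib3, a pseudokinase that ATF4 raises and that acts back on it, stood at 123 and 110.5 CPM in the 6 h libraries and at 44.7 and 46.3 CPM in the 12 h libraries (log2 fold change -1.36 ± 0.06 (SE), edgeR adjusted p = 2.76e-14). Both genes were at their highest of the experiment at 6 h. Atf4 itself, whose protein is mainly set by translation, stood at 485 and 483 CPM in the 6 h libraries and at 264 and 263 CPM in the 12 h libraries (log2 fold change -0.88 ± 0.04 (SE), edgeR adjusted p = 2.48e-15). Slc7a11, the cystine carrier that ATF4 and NRF2 both raise, stood at 4.56 and 4.22 CPM in the 6 h libraries and at 1.42 and 0.827 CPM in the 12 h libraries (log2 fold change -1.95 ± 0.30 (SE), edgeR adjusted p = 9.57e-06). Herpud1, of endoplasmic reticulum quality control, fell from 64.7 ± 0.93 to 28.1 ± 0.109 CPM (SD, n = 2). Members of the same response did not all fall. Ddit3, the factor CHOP, stood at 30.3 and 31.5 CPM in the 6 h libraries and at 30.0 and 25.6 CPM in the 12 h libraries (log2 fold change -0.15 ± 0.10 (SE), edgeR adjusted p = 0.21), and its group means were higher again at 24 h (46.8 CPM) and 48 h (50.8 CPM).

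Genes of amino acid supply were called as well. Of 16 tested serine, folate and proline enzymes 5 fell and 0 rose (31.2% fell, median log2 fold change -0.45), and of 19 amino acid transporters 6 fell and 1 rose. Mthfd2, of mitochondrial folate metabolism, fell from 214 ± 0.885 to 122 ± 2.23 CPM (log2 -0.81 ± 0.04). Psph, the last enzyme of serine synthesis, fell from 72.1 ± 0.849 to 41.1 ± 0.27 CPM. Slc7a3, a cationic amino acid carrier, fell from 162 ± 12.7 to 70.5 ± 5.77 CPM, its 12 h libraries the lowest of the experiment. Slc38a2, the neutral amino acid carrier SNAT2, fell from 259.7 ± 3.18 to 137 ± 4.94 CPM. All of these had lower levels in both 12 h libraries than in both 6 h libraries. Among 20 cytosolic aminoacyl-tRNA synthetases Cars alone was called, from 288 ± 9.11 to 186 ± 7.41 CPM, and 2 genes were without replicate 2 of 12 h. The chaperones of the endoplasmic reticulum had 0 called of 25, with 15 at an unadjusted p under 0.05 by edgeR and 0 called by DESeq2 on the 16 libraries, or 1 called without replicate 1 of 6 h or replicate 2 of 12 h. Hspa5 (BiP) stood at 654 and 628 CPM in the 6 h libraries and at 572 and 584 CPM in the 12 h libraries.

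NRF2 targets fell too, 8 of 22 tested and 0 higher, 36.4% against 8.83%, with a median log2 fold change of -0.38. Slc7a11 is on this list, the ISR list and the amino acid transporter list, so these counts are not separate. Gclm, the modifier subunit of glutathione synthesis, stood at 148 and 141 CPM in the 6 h libraries and at 40.7 and 44 CPM in the 12 h libraries (log2 fold change -1.77 ± 0.06 (SE), edgeR adjusted p = 1.92e-17). Its 6 h libraries were the highest and its 12 h libraries the lowest of the 16. Srxn1, sulfiredoxin, stood at 61 and 57.9 CPM in the 6 h libraries and at 17.5 and 18.9 CPM in the 12 h libraries (log2 fold change -1.70 ± 0.08 (SE), edgeR adjusted p = 7.41e-14). Gclc, the catalytic subunit beside Gclm, showed the same pair of extremes and fell from 109 ± 1.16 to 51.2 ± 1.71 CPM (log2 -1.09 ± 0.05). Txnrd1, thioredoxin reductase, fell from 635 ± 23.4 to 333 ± 7.39 CPM. Of the 8 fallen targets 5 were at their highest of the experiment in both 6 h libraries and 3 at their lowest in both 12 h libraries. The ferritin genes and Nqo1 were not called, and Nqo1, named after its values were seen, had a log2 fold change of -0.41.

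**Figure D3:**
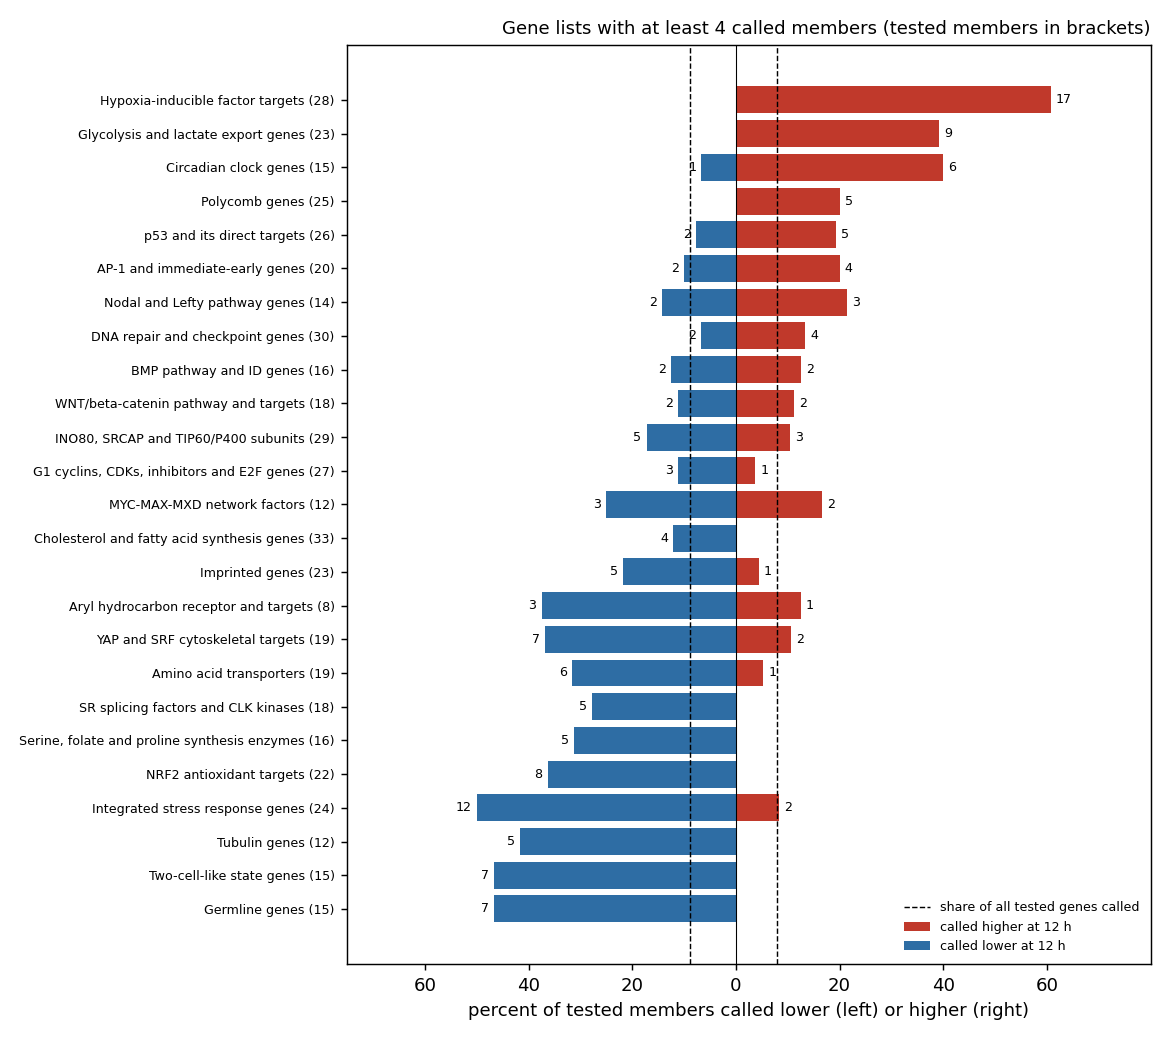
Percent of tested members called higher (right) or lower (left) from 6 h to 12 h of auxin for the 25 lists with at least 4 called members, the number called at the end of each bar and dashed lines at 7.92% and 8.83%, the shares of all tested genes. HIF targets reach 60.7% higher, a direction that in the list's median stays positive (0.22) under the dm6 scaling, and 12 of 24 ISR genes are lower. Under the dm6 scaling every list's median moves down by about 0.54, and those of the glycolysis, clock, Polycomb, repair, BMP and p53 lists turn negative.

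In the Nodal pathway, which holds mESCs ready for differentiation and is limited by the Lefty antagonists, both Lefty genes fell. A signal transducer, a SMAD corepressor and a type I receptor rose. Of 14 tested genes 2 fell and 3 rose, around a median log2 fold change of -0.012, so the list as a whole had no common direction. Lefty1 (chromosome 1 from 180935022 to 180938400) stood at 36.5 and 36.7 CPM in the 6 h libraries and at 5.06 and 5.05 CPM in the 12 h libraries (log2 fold change -2.86 ± 0.11 (SE), edgeR adjusted p = 7.54e-16). Lefty2, its neighbour on chromosome 1, stood at 263 and 272 CPM in the 6 h libraries and at 71.3 and 72.4 CPM in the 12 h libraries (log2 fold change -1.90 ± 0.04 (SE), edgeR adjusted p = 8.56e-20). The replicates of both genes nearly coincided. The fall ran on from an earlier one in Lefty1, whose mean was 91.4 CPM at 1 h and 36.6 CPM at 6 h, and both were lower still at 24 h (2.42 and 40.3 CPM). Smad3, a signal transducer, rose from 6.66 ± 0.827 to 16.5 ± 0.132 CPM (log2 1.31 ± 0.14), Skil, a SMAD corepressor, rose from 43 ± 5.28 to 85.5 ± 9.51 CPM, and Acvr1b, a type I receptor, rose from 30.8 ± 0.383 to 55 ± 3.25 CPM. Nodal itself was not called, with a log2 fold change of -0.54 (named after its values were seen).

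Of the pathways next to it, the BMP list had 2 risen and 2 fallen genes of 16. Both fallen genes, Msx2 and Id1, lost the call without replicate 1 of 6 h (log2 fold change -0.73 and -0.58) and without replicate 1 of 12 h (-0.72 and -0.38), where 1 gene was lower in all. Bmp7, a BMP ligand, rose from 6.65 ± 0.104 to 14.2 ± 0.575 CPM, and Smad6, an inhibitory SMAD, rose from 6.21 ± 0.297 to 14.1 ± 0.857 CPM. On the WNT list 2 of 18 rose and 2 fell, and 1 rose without replicate 1 of 12 h. Notum, a secreted deacylase that inactivates WNT, fell from 29.5 ± 0.218 to 14.2 ± 0.742 CPM, Axin2, a feedback inhibitor, fell from 37.5 ± 3.7 to 22.2 ± 2.31 CPM, and the coreceptor Lrp5 rose by a log2 fold change of 0.78. Both shares were near the background. Few pluripotency genes were called. Of 21 naive genes only Prdm14, a repressor of differentiation genes, was called, from 97.7 ± 1.29 to 59.6 ± 3.5 CPM, and of 16 core and formative genes Utf1 rose from 35.8 ± 0.0725 to 82.4 ± 0.878 CPM and Lin28a fell from 101 ± 1.96 to 56.7 ± 3.54 CPM. Utf1, a chromatin-associated factor of undifferentiated cells, was at its lowest of the experiment at 6 h.

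Markers of other cell types were counted to see whether another population came up. Of 10 tested trophectoderm markers 3 were called higher, Gata2, Krt19 and Ascl2, at means of 11 CPM for Gata2, 4.34 CPM for Krt19 and 2.07 CPM for Ascl2 at 12 h. Each lost its call without a single library, at log2 fold changes of 0.57 for Gata2 (without replicate 1 of 6 h), 0.43 to 0.77 for Krt19 and 0.90 to 1.39 for Ascl2 (without replicate 1 or 2 of 6 h or replicate 2 of 12 h). Their list summed to 177.5 and 180.8 CPM at 6 h and to 189.7 and 192.1 CPM at 12 h. The 8 tested fibroblast markers had 1 called each way and the 15 primitive endoderm markers likewise, and all 4 lost the call when a library was left out. The log2 fold change was then -0.60 for Mmp2 (without replicate 1 of 12 h), 0.65 for Pdgfrb (without replicate 2 of 12 h), -0.70 and -0.57 for Dab2 (without replicate 2 of either time) and 0.95 to 1.48 for Gata6 (without replicate 1 or 2 of 6 h or 2 of 12 h). The 4 tested mesendoderm markers had 0 called by edgeR and by DESeq2, with 1 at an unadjusted p under 0.05 by edgeR, and T, Mixl1 and Foxa2 did not pass the filter on low counts. The sums of the marker lists for primitive endoderm were 1671 and 1688 CPM at 6 h and 1927 and 1878 CPM at 12 h. The part of these cells in the changes above was not tested, and in bulk RNA fewer cells of a kind cannot be told apart from less RNA per cell.

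Genes that mark rare states in mESC cultures were among the fallen. Of 15 tested genes of the 2-cell-like state 7 were lower and 0 higher (46.7%, median log2 fold change -0.91), and of 15 germline genes 7 were lower and 0 higher (46.7%, median -0.57). Zscan4c, a marker of the 2-cell-like state, fell from 8.05 ± 0.767 to 4.19 ± 0.665 CPM (log2 -0.94 ± 0.19) and Zscan4f, named after its values were seen, fell from 11.8 to 6.27 CPM. The Zscan4 genes are near-identical copies, so their reads may be divided among them and the 5 fallen copies are not separate observations. Zscan4b lost its call without replicate 1 of 6 h or replicate 1 of 12 h, where its log2 fold change was -0.59 and -0.62, and Duxf3, a copy of the Dux gene of this state, lost it without replicate 2 of 6 h or replicate 1 of 12 h (-1.77 and -1.57). Without replicate 1 of 12 h 4 genes of the 2-cell-like list were lower, and DESeq2 on the 16 libraries also called 4. Stag3, a meiotic cohesin subunit, fell from 106 ± 2.74 to 45.5 ± 2.99 CPM (log2 -1.22 ± 0.06), with its 12 h libraries the lowest of the 16. Tex11, of meiosis, fell from 9.19 ± 0.85 to 3.72 ± 0.235 CPM (SD, n = 2), and Mov10l1 and Hormad1, of transposon silencing and meiosis, both fell by 1.03 on the log2 scale.

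Cytoskeletal genes made up another fallen group. Of 12 tubulin genes 5 fell and 0 rose (41.7%), and of 19 targets of YAP and SRF 7 fell and 2 rose, or 1 rose without any single one of the 4 libraries. Tubb3 (chromosome 8 from 123411424 to 123422015), a beta-tubulin also used as a neuronal marker, stood at 326 and 322 CPM in the 6 h libraries and at 75.7 and 71.5 CPM in the 12 h libraries (log2 fold change -2.14 ± 0.06 (SE), edgeR adjusted p = 4.94e-19). Its 6 h level was the highest of the experiment. Tuba1a fell from 313 ± 9.68 to 165 ± 5.34 CPM and Tubb4b fell by 0.69 ± 0.03 on the log2 scale. Members of tubulin families are alike in sequence, and reads may be shared among them. Zyx, the focal adhesion protein zyxin, fell from 12.8 ± 1.02 to 3.76 ± 0.293 CPM, and Vcl, vinculin, and Actg1, cytoplasmic gamma-actin (named after its values were seen), fell by 0.74 and 0.65.

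Genes of RNA processing were also among those that fell. On the list of SR splicing factors and CLK kinases 5 of 18 fell and 0 rose (27.8%), although the list's median was -0.04. Srsf2, an exon-binding splicing factor, stood at 847 and 828 CPM in the 6 h libraries and at 328 and 327 CPM in the 12 h libraries (log2 fold change -1.36 ± 0.04 (SE), edgeR adjusted p = 7.77e-19), and its 12 h libraries were the lowest of the experiment. Srsf3 fell from 664 ± 26.4 to 375 ± 4.86 CPM and Srsf6 from 570.2 ± 19.8 to 336 ± 1.31 CPM. Clk4, a kinase of SR proteins, fell from 78.7 ± 1.27 to 51.7 ± 3.96 CPM, a call lost without replicate 1 of 12 h (log2 fold change -0.52). Among 17 nonsense-mediated decay factors, of which 1 rose and 1 fell (2 rose without replicate 1 of 12 h), Upf2 rose from 45.8 ± 3.22 to 91.5 ± 2.64 CPM and Magohb, a copy of an exon junction protein whose reads may be shared with Magoh, fell from 7.24 ± 1.69 to 1.53 ± 0.408 CPM.

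Genes of the partners of RUVBL2 moved in both directions. Of 29 tested subunits of INO80, SRCAP and TIP60/P400 5 fell and 3 rose, 17.2% and 10.3%, but 1 rose under total count or upper quartile scaling. The fallen ones were Epc1, Epc2 and Ing3 of TIP60, the ATPase Srcap, and Tfpt of INO80. Epc1 fell from 118 ± 1.88 to 59.8 ± 4.73 CPM (log2 -0.99 ± 0.06), Srcap fell from 383 ± 2.01 to 224 ± 1.72 CPM, and Actr5, an INO80-specific actin-related protein, rose from 6.63 ± 1.08 to 15.4 ± 0.418 CPM (log2 1.21 ± 0.17). Epc1 was at its highest and Actr5 at its lowest of the experiment at 6 h. Of 20 RUVBL, R2TP and TTT genes with the PIKK clients only the checkpoint kinase Atr was called, from 63.4 ± 1.3 to 98.3 ± 2.95 CPM. The Atr call was lost under upper quartile scaling (log2 fold change 0.58), under the dm6 scaling (0.09) and by limma on log2(TPM + 1) (0.54). On the Polycomb list 5 of 25 rose and 0 fell, but 2 rose without replicate 1 of 6 h and 3 without replicate 2 of 12 h or under total count or upper quartile scaling (median log2 fold change 0.08, and -0.46 under the dm6 scaling), led by the methyltransferase Ezh1, from 21.1 ± 0.739 to 51.8 ± 0.212 CPM (edgeR adjusted p = 6.31e-12). Ring1 and Phf19 of the same list lost their calls without single libraries, at log2 fold changes of 0.46 to 0.55 for Ring1 (without replicate 1 of 6 h or 2 of 12 h) and 0.63 to 0.80 for Phf19 (without replicate 1 or 2 of 6 h or 1 of 12 h).

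Genes of the circadian clock gave 6 rises and 1 fall of 15 tested (median log2 fold change 0.23, which is -0.31 under the dm6 scaling). Bhlhe40, a repressor that HIF is also known to raise, stood at 22.8 and 23.3 CPM in the 6 h libraries and at 72 and 76.4 CPM in the 12 h libraries (log2 fold change 1.69 ± 0.07 (SE), edgeR adjusted p = 9.53e-15), above all other libraries. Dbp, an output factor of the clock, rose from 3.8 ± 0.325 to 9.58 ± 0.0904 CPM (log2 1.33 ± 0.18), and Ciart, a clock repressor, fell from 17.7 ± 0.483 to 7.06 ± 1.09 CPM. The called members held both repressors and outputs. Per3 was not called without replicate 2 of 12 h, at a log2 fold change of 0.45, and Bhlhe41 was not called without replicate 1 of 6 h, at 0.84.

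Some growth arrest and death genes were called. Of 26 tested p53 targets 5 rose (19.2%) and 2 fell (7.69%), 1 of them without replicate 1 of 12 h, around a median log2 fold change of 0.0040 (-0.54 under the dm6 scaling). Polk, a translesion polymerase, rose from 5.97 ± 1.26 to 12 ± 3.19 CPM, Rrm2b, a ribonucleotide reductase subunit, rose from 23.4 ± 2.02 to 40.1 ± 2.19 CPM, and Cdkn1a, the CDK inhibitor p21, was not called at 76 and 74.8 CPM in the 6 h libraries and at 61.2 and 64.7 CPM in the 12 h libraries. In the BCL2 family 2 of 13 rose and 1 fell. Bmf and Bbc3 rose from 9.67 ± 1.44 to 21.4 ± 0.69 CPM and from 4.64 ± 0.3 to 7.98 ± 0.887 CPM. Bok fell from 8.95 ± 0.083 to 3.43 ± 0.289 CPM, so the called members of the family went both ways. Brca2, the recombination mediator, stood at 339 and 335 CPM in the 6 h libraries and at 149 and 146 CPM in the 12 h libraries (log2 fold change -1.19 ± 0.06 (SE), edgeR adjusted p = 5.08e-14), from the highest level of the experiment to the lowest. Of 30 tested repair genes 4 rose and 2 fell, but 1 rose under upper quartile scaling and 1 fell without replicate 2 of 6 h. Nbn, of the complex that senses double-strand breaks, lost its call without replicate 1 of 6 h (0.56) or replicate 2 of 12 h (0.55).

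Many housekeeping programs had 0 called members by edgeR and by DESeq2 on the 16 libraries. These were 35 mitosis genes (20 at an unadjusted p under 0.05 by edgeR), 33 ribosome assembly genes (21), 31 proteasome subunits (13), 30 lysosome genes (18), 49 ribosomal protein genes (38), 13 mitochondrially encoded genes (6), 12 subunits of RNA polymerase II (6) and 9 enzymes of DNA methylation (5). Without replicate 1 of 6 h or replicate 1 of 12 h, 1 lysosome gene was called higher and 1 mitochondrially encoded gene lower. The ribosomal protein genes shifted up together under the fold threshold. All 49 lay between 0.015 and 0.30 on the log2 scale, and 37 were higher and 0 lower at an edgeR adjusted p under 0.05. Their median log2 fold change was 0.17, which is -0.37 under the dm6 scaling. Top2a, of chromosome segregation, stood at 1206 and 1235 CPM in the 6 h libraries and at 1225 and 1216 CPM in the 12 h libraries, and Npm1, of ribosome assembly, at 3697 and 3822 CPM in the 6 h libraries and at 3915 and 3748 CPM in the 12 h libraries.

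Of 18 tested genes picked from those that the study names for this experiment 7 fell and 1 rose. The list does not hold every gene that the study names. They include Atf4, Atf5, Atf3, Chac1, Gdf15 and Ddit4, described above, so the count is not independent of the ISR list, and the study chose the genes on these samples. Cdkn2a, which encodes inhibitors of the cell cycle, fell from 24.6 ± 0.63 to 14.2 ± 0.399 CPM. Ccne2, a G1 cyclin, stood at 14 and 13 CPM in the 6 h libraries and at 6.48 and 10.8 CPM in the 12 h libraries and lost its call without replicate 1 of 12 h (log2 fold change -0.31). Myc stood at 1.42 and 1.36 CPM in the 6 h libraries and at 0.474 and 0.91 CPM in the 12 h libraries (log2 fold change -1.004, edgeR adjusted p = 0.0566). It was not called, but was at -1.54 without replicate 2 of 12 h (edgeR adjusted p = 0.0382), and was also called under upper quartile and dm6 scaling and by limma on log2(TPM + 0.1). Ccnd1 stood at 32.8 and 35.2 CPM in the 6 h libraries and at 35.6 and 33.8 CPM in the 12 h libraries and was not called.

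Set in the whole time course, the interval held peaks as well as turns. For 281 of the 1200 genes that rose (23.4%) the 12 h libraries were above all 14 others, and for 178 (14.8%) the 6 h libraries were below all others. Of the 1338 that fell, 248 (18.5%) had their highest libraries at 6 h and 220 (16.4%) their lowest at 12 h. These counts describe the series and rest on the libraries that made the calls. Bnip3 averaged 16.1 CPM at 6 h, 102 CPM at 12 h and 16.6 CPM at 24 h. Slc16a3 ran from 17.9 through 106 to 12.3 CPM, and Aire from 5.91 through 42.8 to 7.17 CPM. These 3 genes stood highest at 12 h and lower at both neighbouring times, whereas Cyp1a1 was highest at 6 h.

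The step from 24 h to 48 h of auxin, which shares no library with this one, called 1844 genes higher and 1864 lower (12.2% and 12.3%). Of the 1200 genes that rose from 6 h to 12 h, 131 (10.9%) rose again there and 307 (25.6%) fell. These are 7.10% of the genes that rose and 16.5% of those that fell from 24 h to 48 h. Of the 1338 that fell, 243 (18.2%) rose later, which is 13.2% of the later rises, and 207 (15.5%) fell again, which is 11.1% of the later falls. The neighbouring steps called 1573 higher and 999 lower from 1 h to 6 h (10.4% and 6.59%) and 1362 higher and 1633 lower from 12 h to 24 h (8.99% and 10.8%). They share the 6 h or the 12 h libraries with the step described and are given as counts only.

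**Figure D4:**
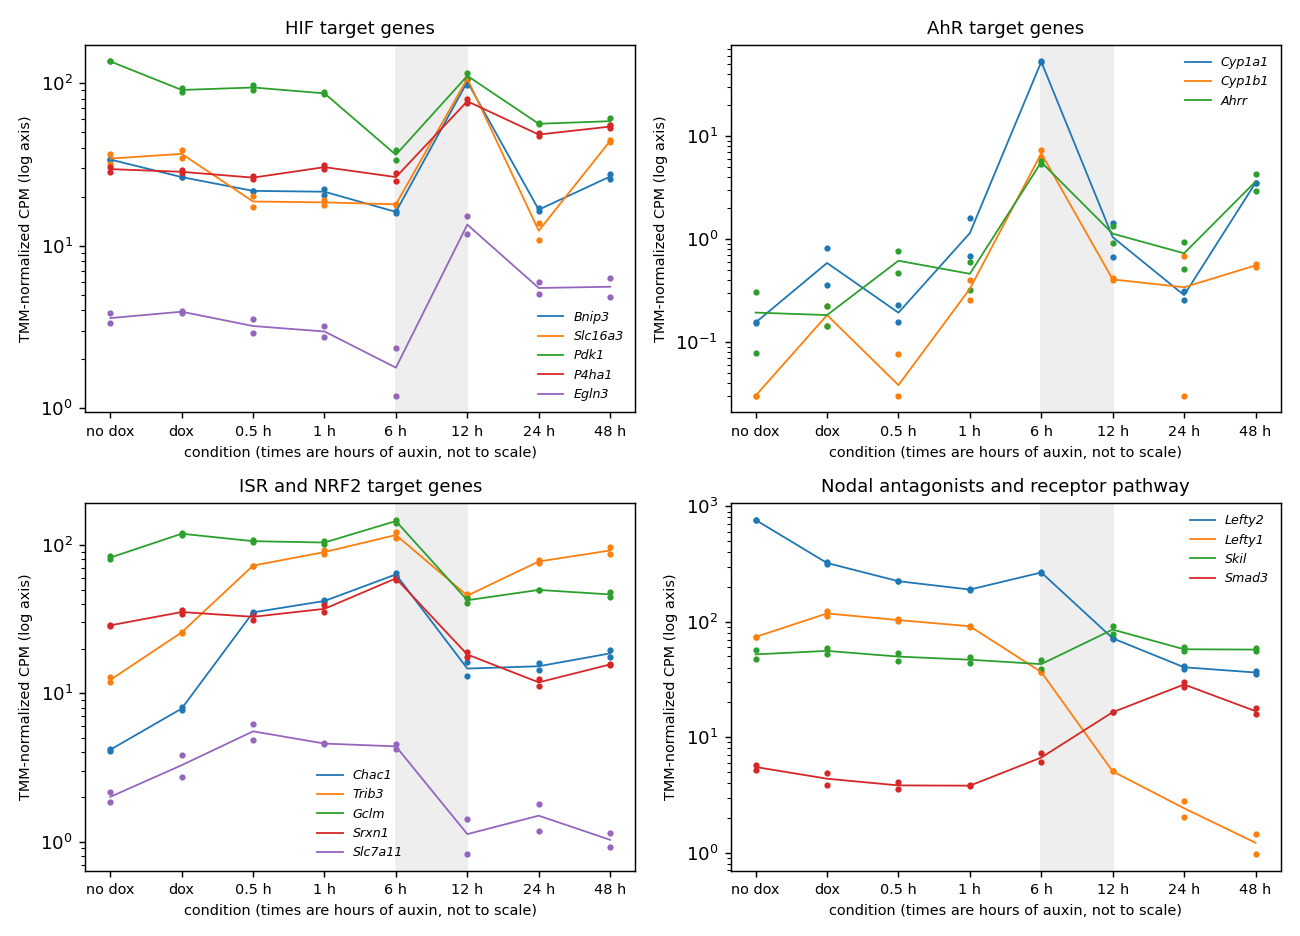
Level of HIF, AhR, ISR and NRF2 target genes and of Nodal pathway genes in all 16 libraries (TMM-normalized CPM, log axis, values under 0.03 drawn at 0.03), with points for libraries, lines through the means of 2 and the step from 6 h to 12 h shaded. Bnip3 and Slc16a3 are highest at 12 h, Cyp1a1, Chac1 and Gclm at 6 h, and Lefty1 falls from 36.6 CPM at 6 h to 5.05 CPM at 12 h and 1.22 CPM at 48 h.

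Calls were spread over gene classes with a few differences. Genes longer than 75 kb were called higher in 11.4% and lower in 10.6% of 2481 genes, against 2.93% and 2.69% of 409 genes under 1 kb. Genes of 1 to 5 CPM fell more often (15.6% of 3093) than they rose (8.70%), and those above 100 CPM were called in 2.49% and 3.49% of 2208. Fold thresholds and depth differ in their reach between these classes. LincRNAs were called higher in 9.43% and lower in 3.37% of 297. On the X chromosome 20 of 497 tested genes rose (4.02%) and 63 fell (12.7%), with a median log2 fold change of -0.13, while autosomal genes were called in 8.07% and 8.69% of 14620. Within the class of 5 to 20 CPM the X chromosome had 7.69% higher and 13.8% lower against 12.9% and 12.5% on the autosomes. Mtmr1, an X-linked lipid phosphatase, fell from 10.3 ± 0.403 to 2.78 ± 0.31 CPM (log2 -1.88 ± 0.17), and the X-linked carrier Slc7a3 was given above. Dmrtc1c2, one of several like copies on the X chromosome, stood at 4.26 and 6 CPM in the 6 h libraries and at 0.0 and 0.414 CPM in the 12 h libraries (log2 fold change -4.60 ± 0.47 (SE), edgeR adjusted p = 2.22e-08).

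**Figure D5:**
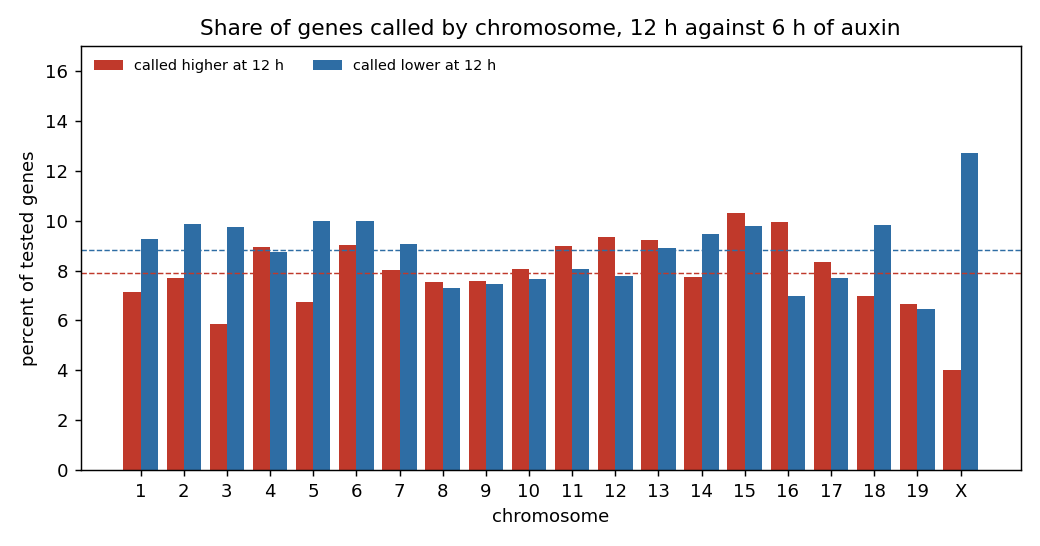
Percent of tested genes called higher (red) or lower (blue) at 12 h against 6 h of auxin on each autosome and the X chromosome, with dashed lines at the shares of all tested genes (7.92% and 8.83%). The X chromosome has 4.02% higher and 12.7% lower, the lowest and the highest bar of the plot, a description with no test.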

How the data were processed

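The 16 RNA-Seq libraries were assigned to 8 conditions, 2 libraries each, from their labels. Per the submitters' processing notes and the study's methods, reads were trimmed with cutadapt 1.18, aligned with STAR 2.7.3a to mm10, freed of duplicates and quantified with RSEM 1.3.1 on GENCODE M23. The strand setting of RSEM was not given in the sources used here. Whether reads of overlapping genes on opposite strands were told apart is therefore not known. The authors deposited RSEM expected counts per gene, which are not normalized, and TPM values scaled by gene length and library. A table of the authors' own comparisons made with DESeq2 1.24.0 (deposited log2 fold changes and adjusted p-values) was not used. Removing duplicates lowers the counts of the most abundant genes.

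Expected counts were rounded, normalized by TMM and filtered with filterByExpr (15155 of 55335 genes kept). A quasi-likelihood model of edgeR 4.0.16 (R 4.3.3) was fitted to all 16 libraries with condition as the only term, which gave 8 residual degrees of freedom and a biological coefficient of variation of 3.43%, and 12 h was set against 6 h. Calls needed more than a 1.5-fold change with p, adjusted by Benjamini-Hochberg over all tested genes, under 0.05, as in the study's methods. SE is the size of the log2 fold change over the square root of F. Levels are TMM-normalized CPM as single libraries or mean ± SD (n = 2), and counting error alone limits genes near 0. Alternatives were other scalings, edgeR on 4 libraries, DESeq2 1.42.0, limma 3.58.1 on log2(TPM + 1) and log2(TPM + 0.1), other filters and fold thresholds, the replicate number as a block and each library left out.

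The 53 gene lists (1104 genes, 1012 tested) and the comparison itself were chosen with earlier results of these data known, and no test was made on a list. Genes named are Ruvbl2 and Ruvbl1, the 15 largest rises and falls among called genes of at least 5 CPM at one time whose libraries do not overlap (predicted genes and pseudogenes left out), up to 5 called members of each list with the largest change or else up to 2 of the most abundant, and genes the study names. Members beyond these that are named to fill a count were named after their values were seen, and some genes that the rule names are not reported here. Positions are those of GENCODE M21 on GRCm38 (mm10), matched for 15143 of the 15155 tested genes, and promoters those of RefSeq on GRCm38.p6, matched for 10954 of 15127 symbols. On simulated data for 12 h against 6 h (14989 genes), edgeR recovered 88 of 100 genes changed 2-fold and 95 of 100 changed 4-fold, with 7 false calls. Genes of the lowest mean counts were not among those changed, and the noise was drawn from the spread of these same libraries. The simulation therefore cannot speak to recovery at the lowest counts or to spread between cultures.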

Additional observations from a re-analysis of the deposited data

How the results depend on the processing

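Of the 165 called genes among the 197 named, 0 changed sign under any alternative. Of the 32 named but not called, 20 changed sign in at least one, 17 of them under the dm6 scaling. The dm6 shift was smaller in size than the fold threshold, so it could not reverse the sign of a call. The counts of genes higher and lower at 12 h were 1200 and 1338, and stayed within 1.5 times of these under RLE, total count and upper quartile scaling, edgeR on 4 libraries, DESeq2 on 16 libraries, limma on TPM with either pseudocount and other filters. They became 224 and 6034 under the dm6 scaling, whose median log2 fold change was -0.54, and 390 and 609 at a fold over 2, and 3605 and 3209 with no fold threshold. DESeq2 on the 4 libraries called 804 genes lower and 877 higher. The cause of that difference was not tested. Leaving out a library in turn, where the lone library is assumed to vary like the others, gave 1061 to 1166 higher and 1174 to 1203 lower, with a median log2 fold change of -0.0095 to 0.0060. Of the 165 called named genes 133 kept the call in all 4 such fits.

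The labels number the libraries of each condition, but nothing ties equal numbers across conditions. Deviations of equal numbers at 6 h and 12 h correlated at -0.10 over 10325 genes. With the replicate number as a block 1195 genes were higher and 1330 lower, of which 1186 and 1318 were shared with the calls reported. With the numbers of the 12 h libraries crossed, an alternative added after seeing the data, the counts were 1199 and 1335.

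Limits: 2 libraries per time cannot separate culture from library spread, and counts of 1 to 5 CPM leave wide standard errors. Whether total RNA per cell changed cannot be read from these counts. The study measured total RNA from equal numbers of cells separately and reports similar amounts, with no significant difference among its time points.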

Other observations

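Other groups were noticed among the genes that moved and were listed after their values were seen, so their counts only describe the step, and leaving out single libraries was not run for their members. Of 12 components of the paraspeckle, a nuclear body built on the long noncoding RNA Neat1, 7 fell and 0 rose. Of all tested genes 8.83% fell. The median log2 fold change of the 12 was -0.71. Neat1 stood at 611 and 625 CPM in the 6 h libraries and at 344 and 331 CPM in the 12 h libraries (log2 fold change -0.87 ± 0.04, edgeR adjusted p = 6.49e-14). Sfpq, an RNA-binding protein of its core, stood at 773 and 775 CPM and then at 338 and 342 CPM (-1.19 ± 0.03). Pspc1, a partner of Sfpq, fell from 99.8 ± 0.988 to 36.8 ± 0.755 CPM (SD, n = 2), and Rbm14 from 335 ± 21.6 to 128 ± 6.72 CPM. Ewsr1 and Taf15, related RNA-binding proteins, both fell by 0.73 on the log2 scale. Nono, the other partner of Sfpq, was not called and stood at 430.5 and 430.6 CPM and then at 485 and 496 CPM (log2 fold change 0.19).

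Of 54 genes of intraflagellar transport, the BBSome and the ciliary transition zone, 21 fell and 2 rose. Their median log2 fold change was -0.42. Among all tested genes 8.83% fell and 7.92% rose. Most of the 54 were expressed at low levels. Falls made up 15.6% of all tested genes of 1 to 5 CPM and 12.5% of those of 5 to 20 CPM. Wdr35, of the retrograde transport complex, fell from 16.5 ± 0.772 to 7.06 ± 1.49 CPM (SD, n = 2, log2 fold change -1.23 ± 0.14, edgeR adjusted p = 9.75e-08), and Ttc26, of the anterograde complex, fell from 8.98 ± 0.547 to 3.32 ± 0.45 CPM (SD, n = 2). The 2 that rose were Mks1 (log2 fold change 0.62) and Cluap1 (0.59).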
